A study of Tribolium castaneum with 16 samples.

Results

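The 802 regions described here carried a FAIRE peak in the brain and in the thoracic epidermis of last-instar larvae of the red flour beetle Tribolium castaneum and in no embryo sample. They were chosen by the authors' peak calls alone. Overlapping peaks from the 14 deposited lists, sharing 1 bp or more, were joined into merged regions, and a merged region on a linkage group was kept when both brain lists and at least 5 of the 6 epidermis lists held a peak there and none of the 6 embryo lists did. They made up 1.77% of the 45389 merged regions on the 10 linkage groups, and they are called larva-only regions below. The merging gave 52384 regions when unplaced scaffolds were included.

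FAIRE-seq recovers DNA that is poor in nucleosomes: chromatin is fixed with formaldehyde and sheared, and the DNA that is not bound in nucleosomes stays in the aqueous phase of a phenol-chloroform extraction. Such open stretches mark promoters, enhancers and other elements at which proteins displace nucleosomes. Elements used after hatching serve tissues that have finished their first patterning, and in holometabolous insects the last larval instar is also when ecdysone and falling juvenile hormone prepare the tissues for metamorphosis.

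Embryos were whole animals of the Georgia I strain, aged 0 to 24, 24 to 48 or 48 to 72 h after egg laying, with 2 samples for each age. Larvae were of the pu11 strain, an enhancer-trap line whose trap activity was used to pick the animals for the epidermis samples. The larval samples were brain, titled CNS, with 2 replicates, and lateral epidermis taken with the elytron disc of the second thoracic segment (T2) or with the hindwing disc of the next segment behind it (T3), with 3 replicates each. Embryo libraries carried index sequences of 5 nt, CNS libraries of 6 nt and epidermis libraries of 8 nt, and fixation took 20 minutes for CNS and 30 minutes for all others. Embryo and larva therefore differed in strain, dissection, index and, for CNS, fixation as well as in age, and these cannot be told apart. The number of animals in a sample was not given in the sources used here. Samples of mixed cells cannot show whether more cells were open at a region or each cell was more open. Expression was not measured, so the labelled tissues could not be checked against marker genes, and gene names and sequences of the regions were not used here.

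The peak lists held between 9725 and 36080 peaks. Depth was read from the background depth, the number of reads expected over a base, which the fold and p-value of each peak allow to be solved. It lay between 1.89 and 4.72 in the embryo lists, was 9.85 and 5.91 in CNS, ranged from 1.96 to 3.78 in T2 and from 4.16 to 5.77 in T3. The list of T2 replicate 1 was both the shortest of the 14 and the shallowest of the larval ones.

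Regions open throughout the larval samples were mostly open in embryos too. Of 9441 regions on linkage groups called in both CNS lists and at least 5 epidermis lists, 4047 (42.9%) were also called in all 6 embryo lists. The 802 larva-only regions were 8.49% of them. Regions that were called in a single embryo list lay just outside the rule and numbered 543. In 481 of these the embryo list was 0 to 24 h replicate 2, the deepest embryo list, and in another 41 it was 0 to 24 h replicate 1. Without 0 to 24 h replicate 2 the rule kept 1286 regions, so that list set the boundary of the class more than any other. Both lists of the 0 to 24 h stage and no other embryo list called 1065 of the 9441 regions, whereas both lists of the 48 to 72 h stage and no other embryo list called 4. Embryo lists of the later stages were shallower than those of the first, and the part of depth in this difference was not tested.

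**Figure D1:**
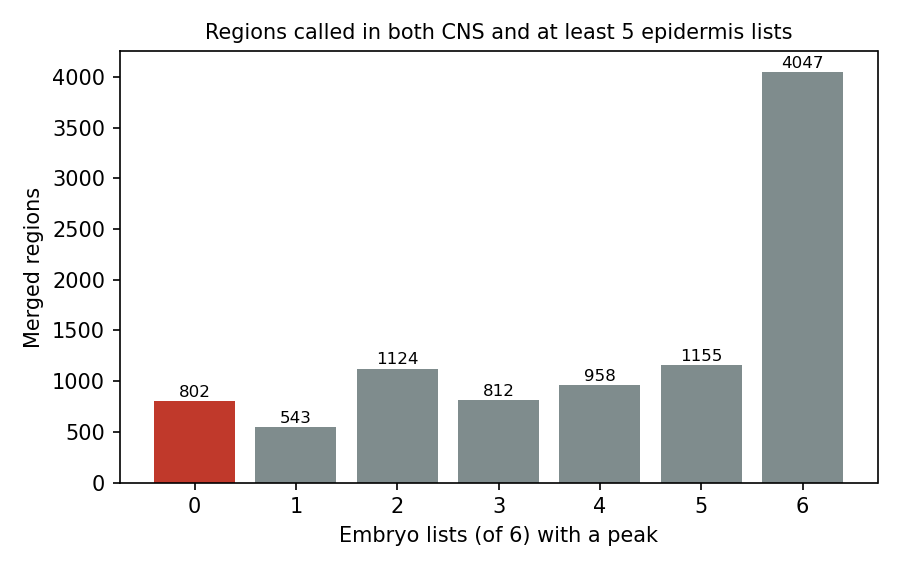
Number of merged regions on linkage groups (y axis) called in both CNS lists and at least 5 of 6 epidermis lists, by the number of the 6 embryo lists that also had a peak (x axis). The 802 larva-only regions are the red bar at 0, and the tallest bar holds the 4047 regions called in all 6 embryo lists.

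Larval strength differed between the borders of the rule. The smallest larval fold of a region, which is the authors' enrichment of the peak summit over local background in the list where it was lowest, had a median of 3.28 in the 802 larva-only regions and 3.39 in the 543 regions with a single embryo call. In the single embryo list that called them, the fold of those 543 ranged from 2.07 to 7.79 with a median of 3.89. The strongest of them was ChLG10:6118350-6118709, whose larval folds ran from 8.23 to 12.1 and which 0 to 24 h replicate 2 called with a fold of 5.26. ChLG3:28994482-28994792, ChLG8:2086116-2086581 and ChLG4:6178982-6179515 followed, with folds of 4.56, 2.68 and 3.63 in that same embryo list. On the larval side, 242 regions failed by having only 4 epidermis lists, and their smallest larval fold had a median of 2.90. Another 291 failed by having only 1 CNS list, with a median of 2.71.

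The rule let a region lack at most 1 larval call. All 8 larval lists called 348 of the 802 regions (43.4%), and 454 lacked a call in 1 epidermis list. Of all 9441 regions called throughout the larval lists, 5827 (61.7%) were in all 8. T2 replicate 1 lacked the call at 3485 of those 9441 (36.9%) and at 436 of the 802 larva-only regions (54.4%). Those 436 were 96.0% of the 454. T2 replicate 3 missed 11 regions, T3 replicate 2 missed 4 and T2 replicate 2 missed 3, while T3 replicates 1 and 3 missed none. In sum the larva-only regions covered 265 kb. Their median width was 300.5 bp, with a range from 158 to 996 bp. Over all regions on linkage groups the median width was 275 bp. It was 209 bp in regions called in both CNS lists and in no epidermis or embryo list. Regions called in at least 5 epidermis lists and in no CNS or embryo list had a median of 307 bp. Regions called in all 14 lists had a median width of 535.5 bp, and a merged region tends to widen with the number of lists that contribute to it. The narrowest larva-only region was ChLG3:26776339-26776496 and the widest was ChLG3:20688826-20689821.

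The level of each region was compared between lists as the pileup at the summit divided by the genome-wide background depth of the list, called depth-normalised pileup below. Its median over the larva-only regions was 7.72 and 8.30 in the CNS lists. In T2 it was 10.7, 9.51 and 9.18 in replicates 1 to 3, where the first value rests on the 366 regions that list called. In T3 it was 10.8, 9.75 and 8.67. Every epidermis median was thus above both CNS medians. Over all regions of each list the medians were 5.79 and 7.45 in CNS and 12.2, 8.72, 8.63, 7.93, 8.08 and 6.94 in T2 and then T3, so that there too all but T3 replicate 3 were above both CNS lists. In the larva-only regions T2 and T3 overlapped, with means of 9.80 ± 0.793 and 9.74 ± 1.07 (SD, n = 3 each) against 8.01 ± 0.411 in CNS (SD, n = 2). Compared with all regions of the same list, the larva-only regions were of middle strength. The median authors' fold was 4.10 and 4.20 in CNS, where all regions had 3.94 and 4.92. In epidermis it was between 4.28 and 5.30, where all regions had from 3.84 to 4.87. Compared with the 5827 regions called in all 8 larval lists, the 348 larva-only ones among them were weaker in every list. Their median fold was 4.34 and 4.38 in CNS, against 5.49 and 7.35. In epidermis it was from 4.45 to 6.19, against 5.17 to 6.98.

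**Figure D2:**
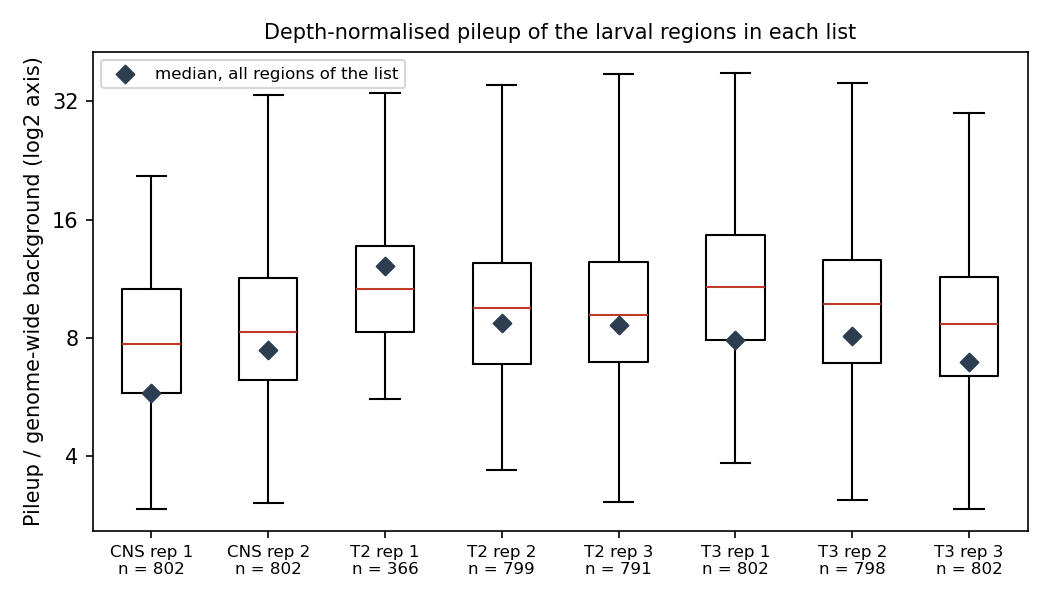
Depth-normalised pileup (pileup at the summit divided by genome-wide background, log2 axis) of larva-only regions in each of the 8 larval lists. Boxes span the quartiles with the median in red, whiskers reach the lowest and highest region, n is the number of regions called in the list, and diamonds give the median over all regions of that list on linkage groups. The T2 replicate 1 box rests on 366 regions and is the only one whose median lies below the diamond.

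The strongest larva-only regions were high in both tissues. By the rule of the largest smallest fold, the first was ChLG7:15799105-15799482, a 378-bp region. Its authors' folds were 8.99 and 11.3 in the CNS lists, 13.7, 15.3 and 13.4 in T2, and 17.1, 11.99 and 11.5 in T3. All 6 epidermis folds were above both CNS folds. Its depth-normalised pileup, taken as the median over larval lists, was 6.91 times the lowest level at which an embryo list could have called it.

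ChLG2:860626-860976 was next, with folds of 8.85 and 12.8 in CNS, 13.2, 13.3 and 11.2 in T2, and 12.5, 9.63 and 9.9997 in T3. Here the tissues overlapped, since CNS replicate 2 was above 4 of the 6 epidermis lists. ChLG9:4847384-4847605 is only 222 bp wide and had folds of 8.39 and 9.70 in CNS and from 11.1 to 17.6 in epidermis. Its nearest region called in any embryo list was 8387 bp away. The rest of the 6 strongest were on linkage group 2.

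ChLG2:19531252-19531560 had CNS folds of 8.28 and 12.1 and epidermis folds from 10.3 to 15.3. ChLG2:396870-397067, 198 bp wide, had CNS folds of 9.54 and 8.23 and epidermis folds from 10.2 to 16.2. ChLG2:11619510-11619873 had CNS folds of 7.84 and 12.01 and epidermis folds from 8.17 to 11.8, and another larva-only region lay 1897 bp from it. CNS and epidermis overlapped in the first and the last of these and not in the second. In all 6 of the strongest regions the CNS and epidermis summits lay within 25 bp of each other.

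At the weak end, ChLG10:10130623-10131007 had a fold of 1.73 in CNS replicate 1 and from 2.13 to 3.56 in 5 epidermis lists. ChLG9:14130941-14131249 had 2.48 and 1.81 in CNS but from 4.07 to 5.46 in 5 epidermis lists. The others were ChLG3:12432019-12432255 and ChLG9:13289799-13290137, with smallest folds of 1.86 and 1.896. Local background was 3.62, 1.96, 4.31 and 5.68 times the genome-wide level in these 4 regions in the order given, so a low fold did not always mean a low pileup.

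Whether the embryo lists could have called regions of this strength was asked from the depth of each list. The level needed was the depth-normalised pileup at which the summit would have reached the smallest −log10 p present in that embryo list, given the region's own local background. Over the larva-only regions its median was 4.04 and 3.81 in the 0 to 24 h lists, 5.30 and 5.29 at 24 to 48 h, and 5.20 and 4.74 at 48 to 72 h. The median larval level of a region was past that threshold in all 6 embryo lists for 798 of the 802 regions (99.5%). With the lowest larval level in place of the median, 603 regions (75.2%) were past it in all 6 lists and 799 in at least 1. Against the most sensitive embryo list of each region, the larval median was 2.35 times the level needed at the median region, with quartiles of 2.00 and 2.82. For 598 regions (74.6%) the factor was at least 2, and for 159 (19.8%) it was at least 3. The largest was 7.63, at ChLG3:18975120-18975585.

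The larval level was in part set by the rule, which required larval calls, so a high share past the threshold was partly fixed in advance. Embryos were whole animals and the larval tissues were dissected, so the same level need not apply to both, which was not tested. T2 replicate 1, a larval list whose depth (1.96) lay within the embryo range, called 366 of the same regions and missed 436 (54.4%). Of the 9441 regions called throughout the larval lists it missed 36.9%. Its smallest −log10 p was 3.15, against 2.63 to 3.07 in the embryo lists. It held 9725 peaks, against 18034 and 17288 in the embryo lists with depths of 1.89 and 1.92. The calculation uses the summit only, and replicate embryo lists show how far such a threshold holds. Of regions past the level needed by a replicate of the same stage, that replicate called between 57.6% and 94.3% over the 6 ordered pairs. The lowest share was from 48 to 72 h replicate 1 to its replicate 2, and the highest from 0 to 24 h replicate 1 to its replicate 2.

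**Figure D3:**
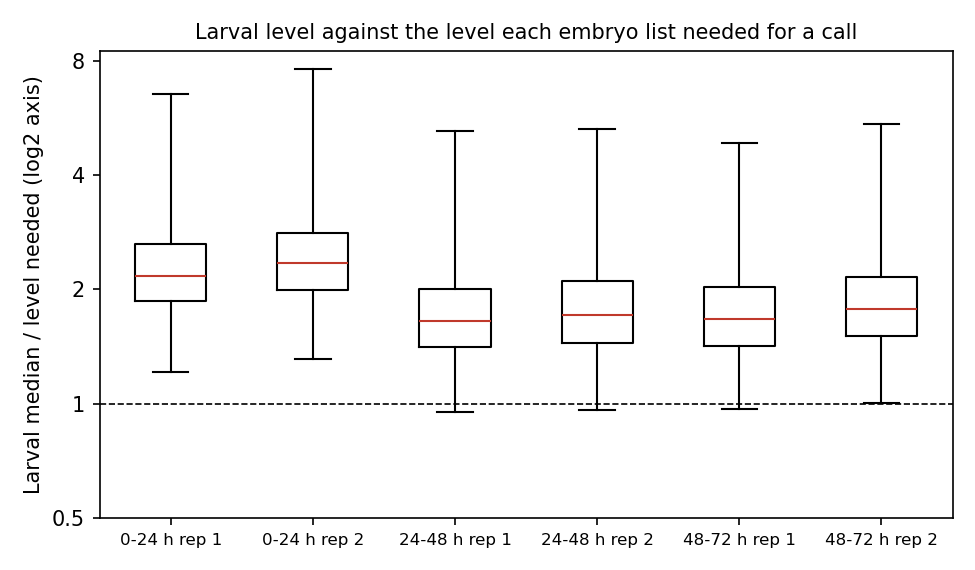
Median larval depth-normalised pileup of each of the 802 larva-only regions divided by the level each embryo list needed for a call (log2 axis), for the 6 embryo lists. Boxes span the quartiles, whiskers reach the extremes and the dashed line marks a ratio of 1; the median ratio was 2.17 and 2.35 in the 0 to 24 h lists and between 1.65 and 1.78 in the other 4.

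How the larva-only regions stood in CNS against epidermis depended on the measure. Ranked by the authors' fold within each list, the median larva-only region lay at the 53.3rd and 36.1st percentile in the CNS lists, at the 38.0th, 50.2nd and 50.7th in T2, and at the 64.7th, 59.1st and 60.5th in T3. The CNS mean was 44.7 ± 12.1 (SD, n = 2) and the epidermis mean 53.9 ± 9.63 (SD, n = 6), so the tissues overlapped. Among the 348 regions called in all 8 larval lists, the percentile in all 6 epidermis lists exceeded both CNS lists at 91 (26.1%). Over the 5827 regions called in all 8 larval lists, whatever their embryo calls, that share was 26.7%, close to the same. The reverse order, both CNS lists above all 6 epidermis lists, was found at 14 of the 348 (4.02%), against 17.5% of the 5827.

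Depth-normalised pileup, a measure added after the data had been seen, gave a larger share with epidermis on top. It was higher in all 6 epidermis lists than in both CNS lists at 159 of the 348 regions (45.7%), against 23.8% of the 5827. CNS was higher in every list pair at 13 (3.74%), against 14.3%. A call in all 8 lists removes low values, and the lowest level that a list could call fell with its depth. Both CNS lists were deeper than every epidermis list, so low values could enter in CNS more easily. The 348 had lower median pileups than the 5827 in every larval list, so this limit may weigh on the 2 shares unequally, which was not tested. The median log2 ratio of the CNS mean to the epidermis mean was −0.41 in the 348 and −0.07 in the 5827. Thinning all lists to one depth lowered the share with epidermis above CNS to 26.5%, against 15.8% of all regions called in all 8 larval lists. On both measures, in the lists as deposited, CNS stood above epidermis at a smaller share of larva-only regions than of all regions. Both values moved with list length: with equal numbers of peaks the pileup share was 10%, against 6.54% of all regions, and the CNS minus epidermis difference in median percentile went from −9.17 to −31.5, with a pooled SD between replicates of 10.1. That difference was −19.9 with the best 50% of each list and −18.3 without CNS replicate 1. CNS and epidermis also differed in fixation, 20 against 30 minutes, and in the length of the library index, and these cannot be told apart from tissue.

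**Figure D4:**
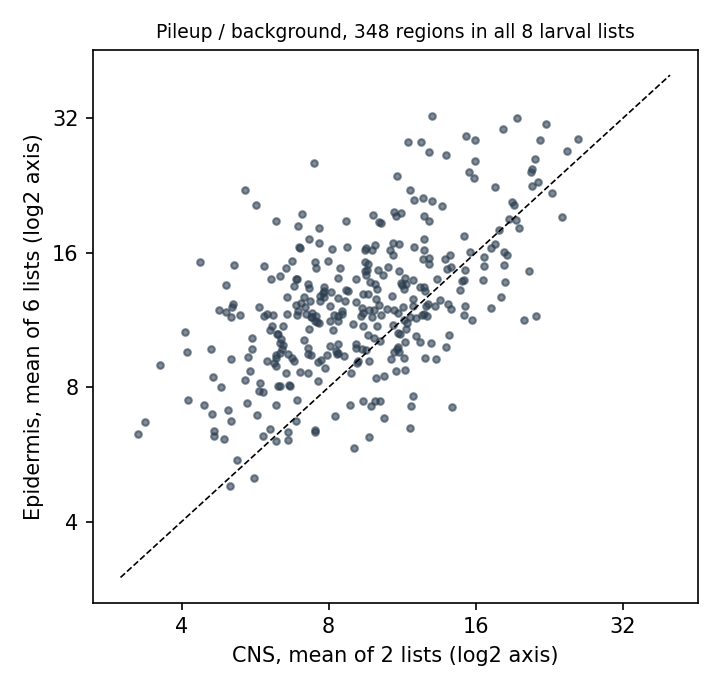
Depth-normalised pileup of the 348 larva-only regions called in all 8 larval lists, as the mean of 2 CNS lists (x axis) against the mean of 6 epidermis lists (y axis), both on log2 axes. The dashed line marks equal levels, and most points lie above it, with a median log2 ratio of CNS to epidermis of −0.41.

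Single regions, picked for the largest differences in rank, showed how wide this range was. ChLG2:19489044-19489475 leaned most to epidermis in rank, with folds of 2.62 and 3.04 in CNS, 8.12, 11.1 and 11.3 in T2, and 12.1, 11.8 and 9.78 in T3. In rank it lay at the 13.4th and 9.68th percentile of the CNS lists and above the 88th percentile of each epidermis list. ChLG2:8122947-8123335 had CNS folds of 3.16 and 2.94 and epidermis folds from 8.16 to 12.1. Another region of this kind, ChLG5:579713-580026, had CNS folds of 2.55 and 3.64 and epidermis folds from 6.499 to 10.99. In these 3 regions no epidermis list overlapped the CNS range.

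The opposite lean in rank was led by ChLG2:5175632-5176065, with CNS folds of 8.28 and 9.56 and epidermis folds from 2.48 to 4.17 in the 5 lists that called it. ChLG7:2193850-2194136 had CNS folds of 7.63 and 8.56 and epidermis folds from 3.30 to 3.83. The highest CNS values among the 3 belonged to ChLG2:10503243-10503550, at 13.7 and 15.0, while its epidermis folds were 3.78 and 4.09 in T2 and 6.04, 4.04 and 3.37 in T3. All 3 were missed by T2 replicate 1, and in each the groups were apart. Regions of both leans were picked for this difference, so the separation follows in part from the choice.

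Between the segments the measures also differed. In rank within the list, the mean of the median percentile was 46.3 ± 7.20 over the 3 T2 lists (SD, n = 3) and 61.4 ± 2.92 over the 3 T3 lists (SD, n = 3), and no T2 list reached any T3 list in the deposited lists. All 3 T3 lists ranked a region above all 3 T2 lists at 91 of the 348 (26.1%), against 14.1% of the 5827, and T2 ranked above T3 at 0 of the 348, against 1.44%. In depth-normalised pileup, T3 exceeded T2 in every list pair at 12 of the 348 (3.45%), against 1.39%, and the reverse held at 9 (2.59%), against 6.83%. The median log2 ratio of T2 to T3 was −0.03 in the 348 and 0.06 in the 5827. Background depth was higher in every T3 list than in any T2 list. The T2 minus T3 difference in median percentile was −15.1 in the lists as deposited, −13.5 after thinning to one depth, −9.80 without T2 replicate 1 and −3.54 with lists cut to equal numbers of peaks, where it was below the pooled SD between replicates of 5.50.

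The largest T3 lean in rank was at ChLG9:5847438-5847905, which had folds of 3.25 and 2.74 in T2 replicates 2 and 3 and of 8.04, 6.85 and 4.84 in T3, with 4.54 and 4.17 in CNS. ChLG2:100594-100937 was similar, with 3.12 and 3.10 in T2 and 5.87, 6.505 and 4.27 in T3. T2 replicate 1 called neither. Leaning to T2, ChLG2:5776012-5776392 had 3.61, 7.96 and 5.48 in T2 and 2.59, 3.21 and 4.64 in T3, so the segments overlapped. ChLG2:11782177-11782512 had 5.82 and 5.41 in T2 replicates 2 and 3 and 3.32, 3.03 and 4.68 in T3. T2 replicate 1 did not call this region. With 3 samples a segment, and with regions picked for their difference, these values are a description.

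Summits in brain and epidermis lay close together at most larva-only regions, which merging overlapping peaks into regions of this width partly sets. The median distance between the mean CNS summit and the median epidermis summit was 14 bp. It was at most 25 bp in 581 regions (72.4%) and over 100 bp in 43 (5.36%). Over all 9441 regions called throughout the larval lists, which include wider ones, the median was 18 bp, with 60.9% within 25 bp and 15.0% over 100 bp. List by list, summits of a CNS and an epidermis list were 19.6 bp apart at the median region, averaged over 12 pairs of lists. For pairs of epidermis lists the same average was 18.0 bp over 15 pairs, and the pair of CNS lists was 12 bp apart. The corresponding averages in regions called in all 14 lists were 20.7, 16.2 and 10 bp. The range of the 12 CNS to epidermis pairs in larva-only regions, 18 to 21 bp, overlapped that of the 15 epidermis pairs, 17 to 19 bp.

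A few wide regions held separate summits. In ChLG2:17134175-17134835 the CNS and epidermis summits were 443 bp apart, the most of any larva-only region. ChLG3:20688826-20689821, the 996-bp region, had them 425.5 bp apart, with folds of 5.75 and 6.75 in CNS, 3.61, 6.37 and 4.19 in T2, and 4.39, 5.29 and 4.13 in T3. Peaks were seldom split, as between 5 and 19 of the regions held more than 1 peak in a given larval list.

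Larva-only regions were spread over all 10 linkage groups and unevenly so. Linkage group 3, which had the most merged regions, held 157, which was 2.42% of its merged regions and 10.3% of its regions called throughout the larval lists. The lowest shares were on linkage group 1, which is the X chromosome, with 28 (1.03% and 4.88%), and on linkage group 6, with 29 (1.01% and 6.20%). In between, linkage group 7 held 114, linkage group 2 held 105, and linkage groups 5 and 9 held 103 each. Copy number of the X depends on the sex of the animals, which was not given in the sources used here.

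**Figure D5:**
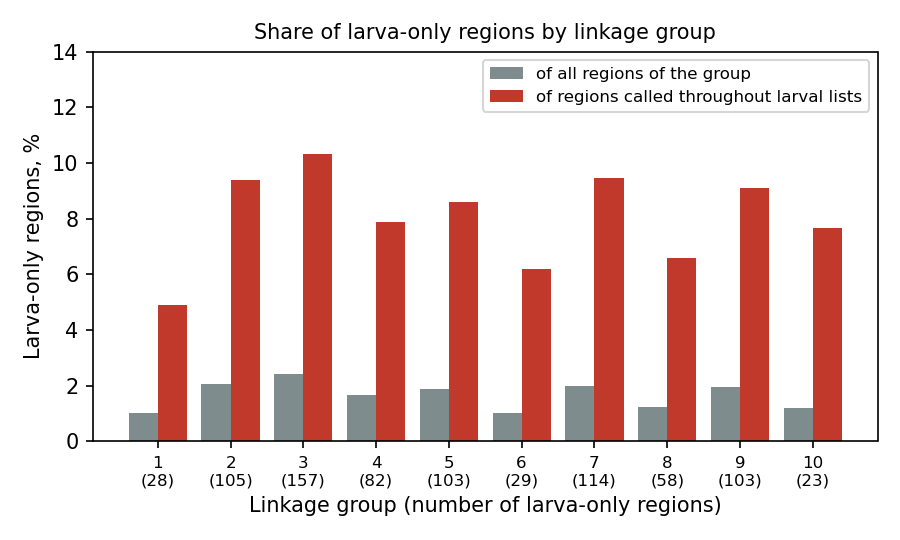
Larva-only regions on each linkage group as a percentage of all merged regions of that group (grey) and of its regions called in both CNS and at least 5 epidermis lists (red), with their number in brackets. Linkage group 3 has the highest and linkage group 1 the lowest red bar, at 10.3% and 4.88%.

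In windows of 1 Mb, 178 of the 193 windows that held a merged region had a larva-only region. Among the 164 windows with at least 100 regions the larva-only share had a median of 1.60%. ChLG9 from 14000001 to 15000000 stood highest, with 16 larva-only regions of 150 (10.7%), ahead of the next window at 5.32%. The 16 regions there included the pairs ChLG9:14224282-14224581 and ChLG9:14229488-14229772, which are 4906 bp apart, and ChLG9:14450209-14450506 and ChLG9:14455060-14455348, which are 4553 bp apart. Their lean between tissues was not uniform: the log2 ratio of CNS to epidermis was −1.60 at ChLG9:14465290-14465732 and 0.57 at ChLG9:14229488-14229772. ChLG3 from 15000001 to 16000000 also held 16, of 317 regions (5.05%).

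At short range most larva-only regions stood alone. The median distance to the nearest other larva-only region was 47727 bp, and 209 of the 802 (26.1%) had another within 20 kb, against 21.4% of all regions on linkage groups. No stretch of 20 kb held more than 4. One such stretch was on linkage group 7 and comprised ChLG7:6738895-6739126, ChLG7:6742005-6742560, ChLG7:6742857-6743479 and ChLG7:6744773-6745182. Local background there was high, at 3.57, 8.37, 9.84 and 4.41 times the genome-wide level. At ChLG7:6742857-6743479 folds of 2.29 to 3.88 therefore went with a depth-normalised pileup of 17.9 to 36.0. The copy number of this stretch in the Georgia I and pu11 strains was not tested.

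A second stretch lay at ChLG7:14917291-14918046, ChLG7:14925060-14925389, ChLG7:14933598-14933905, ChLG7:14933953-14934434 and ChLG7:14939913-14940240, where any 20 kb held at most 4 of the 5. Its members differed in tissue. ChLG7:14925060-14925389 had CNS folds of 8.73 and 7.03 and epidermis folds from 2.87 to 5.47. ChLG7:14939913-14940240 had CNS folds of 2.55 and 2.48 and epidermis folds from 3.94 to 5.90. Only 47 bp separated ChLG7:14933598-14933905 from ChLG7:14933953-14934434, and the log2 ratio of CNS to epidermis was −0.02 at the first and −0.77 at the second. Neighbouring larva-only regions thus ranged from higher in CNS to higher in epidermis within this stretch.

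A smaller share of larva-only regions than of the other classes compared lay close to open chromatin of the embryo. A region called in at least 1 embryo list lay within 1 kb of 260 of the 802 (32.4%). The share was 41.1% for 2314 regions called in both CNS lists and in no epidermis or embryo list, 39.1% for 594 regions called in at least 5 epidermis lists and in no CNS or embryo list, and 47.7% for all regions on linkage groups. For regions called in all 14 lists the share was 38.2%, not counting the region itself. The median distance to the nearest embryo-called region was 1976 bp for larva-only regions and 1573.5 and 1613 bp for the CNS and epidermis classes. These shares were not tested, as the classes were defined by the same calls.

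Local background placed the larva-only regions between the other classes. It is the peak caller's expected depth at the summit relative to the genome-wide level, and it was shared by the lists: at all 19945 summit positions found in 2 or more lists the relative values were equal within 1%. Its median was 1.76 in larva-only regions, 1.08 in the CNS class, 2.08 in the epidermis class, 2.15 in regions called in all 14 lists and 1.27 over all regions. It was over 1.5 in 507 of the 802 regions (63.2%), and over 3 in 107. Only 76 (9.48%) lay within 5% of the genome-wide level. Which library served as the control was not given in the sources used here.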

How the data were processed

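FAIRE-seq was analysed in 14 of the 16 labelled samples; the 2 genomic input samples were not analysed here. Each of the 14 had 1 deposited narrow-peak list. The submitters' processing notes name Trimmomatic 0.32, Bowtie2 2.2.3, SAMtools 0.1.12a, deepTools 2.5.2 and MACS2 2.1.1.20160309, without roles. The genome build and the control were not given in the sources used here. Per the labels, chromatin was sonicated to 500 bp to 2 kb. The deposited fold enrichment is a ratio of the summit to its background, and the deposited −log10 of p and q (smallest −log10 q from 1.30 to 1.36) and the score are per peak. Fold, p and q are the authors' values within a list.

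Pileup and background were solved from fold = (pileup + 1) / (background + 1) and a Poisson tail; 323086 of 323093 pileups were whole within 0.02. The recovery and the region rule were tested on simulated data. The smallest background of a list was its genome-wide depth. Dividing by it assumes the same read extension in all lists; the narrowest peak, 125 bp, was the same in each. Of several peaks in a region the highest value was used, and each percentile is the share of the list's regions on linkage groups with a lower fold. Total read depth is unknown, so no counting intervals are given. Nothing says that replicates came from separate animals, so their spread may be technical.

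The regions and the rule for those named (strongest, weakest, widest, narrowest, densest, and leaning most to a tissue or segment) were chosen with earlier results of these data known, and no test was run on them. The planned comparison between lists was the percentile of fold within a list; depth-normalised pileup was added after the data had been seen. The planned search of genes and motifs was not run, as no genome of the files' build was used here. Settings tried are listed in the closing section. The deposited starts count from 0 and were converted to count from 1. The regions of the densest 1-Mb window and the one with the largest factor over the level needed were named after their values were seen. Python 3.11.15 with pandas 2.3.3 and scipy 1.17.1 was used.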

Additional observations from a re-analysis of the deposited data

How the results depend on the processing

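The number of larva-only regions stayed within 1.5 times 802 in 6 of 9 other settings: best 50% of each list, thinning to one depth, −log10 q of at least 2, merging up to 100 bp apart, 50% coverage, and at least 4 epidermis lists. It was 356 at equal list sizes of 9725 peaks, 348 with all 6 epidermis lists required and 1345 with 1 embryo list allowed. Which regions passed changed more than the count. Of the 802, 77 (9.60%) were found again at equal list sizes, 188 in the best 50% and 520 (64.8%) after thinning. All 6 strongest regions were found in each setting, but they were picked for high larval folds, and settings that drop weak peaks favour such regions. Leaving out 1 sample gave from 804 to 1286 regions, the most without 0 to 24 h replicate 2. Where an epidermis sample was left out, the rule asked for at least 4 of the epidermis lists that remained. Without T2 replicate 1 the number of regions was 1035 under that changed rule, and 784 of those were in every remaining larval list.

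The median percentile of larva-only folds in CNS minus epidermis was −9.17, less than the pooled SD between replicates of 10.1. It was −19.9 in the best 50%, −31.5 at equal list sizes, and from −18.3 to −6.82 with 1 sample left out. For T2 minus T3 it was −15.1 with a pooled SD of 5.50, −3.54 at equal list sizes, and from −16.3 to −9.80 with 1 sample left out. The share of regions with depth-normalised pileup higher in epidermis than in CNS in every list pair, 45.7%, and its settings were chosen after seeing the data. It was 40% in the best 50%, 10% at equal list sizes (6.54% of all regions), 26.5% after thinning, 38.4% with 50% coverage and 26.1% by percentile. Leaving out 1 sample gave from 37.2% to 63.3%. The lowest was without T2 replicate 1, against 22.1% of all regions, and the highest without CNS replicate 2, against 50.9%. The cause of these changes was not tested. No paired analysis was possible, because no label says whether T2 and T3 replicates of the same number belong together. The results also came from no test. The shallowest embryo list, 24 to 48 h replicate 1, had a background depth of 1.89 expected reads per base. Without it the rule kept 804 regions. Whether depth limited the embryo side of the rule was not tested.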
